A study of Homo sapiens with 6 samples.

Results

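The genes described here encode 42 proteins that bind the 3′ untranslated regions of mRNAs, in 16 protein families or groups. They were chosen by symbol, and all 42 had a row among the 20169 gene rows of the count table. RNA-seq of polyadenylated RNA was made from HEK293T, an established line of human embryonic kidney origin that expresses the SV40 large T antigen. Both lines compared were monoclonal and carried a landing pad, which is a genomic site built to take up reporters. The 3 PGK libraries came from cells with a PGK landing pad, named for the promoter of a glycolytic gene, and the 3 CAG libraries from cells with a CAG landing pad, named for a strong composite promoter. No other treatment, allele or time point is given for either group. The comparison asks how the host lines of a study on 3′UTRs differ, and here whether the mRNAs of proteins that read 3′UTRs were at equal levels in both. Protein levels were not measured. No more than 1 line per promoter is told apart in the labels, so promoter and clone cannot be told apart, and separate cultures are not named for the libraries of 1 line. The p-values therefore measure the spread between these libraries, which may be technical.

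The 3′UTR of an mRNA holds short elements that RNA-binding proteins recognise, and the bound proteins set how long the mRNA lasts, how well it is translated and where in the cell it lies. Some of these proteins, such as ZFP36, Roquin, Nanos and Smaug proteins, recruit the CCR4-NOT deadenylase, which shortens the poly(A) tail. Others, such as ELAVL1, protect AU-rich mRNAs, and many families hold paralogues that bind nearly the same element.

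Total counts ran from 21896246 to 23442542 per library, and the biological coefficient of variation over all tested genes was 0.0494. Pearson correlations of log2 CPM across genes were 0.995 to 0.997 within a line and 0.958 to 0.960 between lines. Of 8 markers chosen for the HEK293T line, 7 had a row, and their summed level was 592 to 599 CPM in PGK and 763 to 804 CPM in CAG. KRT18, an epithelial keratin, was at 52.2 and 57.1 CPM in the means of PGK and CAG, whereas PAX2, a kidney factor, was at 1.55 and 1.27 CPM and PAX8 had next to no counts. Of the same list VIM, an intermediate filament gene, was called higher, at 455 and 631 CPM, as were EYA1 at 2.57 and 5.23 CPM and KRT8 at 1.09 and 5.35 CPM, and VIM made up most of the rise in the sum. Markers of immune cells summed to at most 1.34 CPM in any library and those of endothelial, liver and erythroid cells to at most 0.307 CPM, while fibroblast markers summed to 18.5 to 19.8 CPM in PGK and 22.1 to 22.2 CPM in CAG, almost all of it from COL1A1. The part of marker differences in the results below was not tested.

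Of the 42 genes, 39 passed the low-count filter, and 14 were higher and 10 lower in CAG. A gene was called at an adjusted p under 0.05, from edgeR's quasi-likelihood test and the Benjamini-Hochberg adjustment over all 13103 genes tested. Of all tested genes 62.0% were called, 31.6% higher and 30.4% lower, and of the 39 members 61.5% were called, so the share among the members was near the background. The median log2 fold change of the tested members was 0.02, against -0.00 for all tested genes, and the median absolute log2 fold change was 0.23 against 0.26. The libraries of the lines did not overlap for 25 of the 39, or 64.1%, against 65.5% of all tested genes. Differences were mostly small. Of the 24 called members 11 had an absolute log2 fold change under 0.322, and 9 had one of at least 0.5, which is 23.1% of the tested members against 25.3% of all tested genes. SAMD4A alone was called and at least 2-fold changed, 1 of 39, where 8.62% of all tested genes were. When the null was a fold of 1.5, SAMD4A and STAU2 passed, as did 11.5% of all tested genes. For 13 of the 15 uncalled members the 95% interval of the fold change lay within 0.322 of 0 on the log2 scale.

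**Figure D1:**
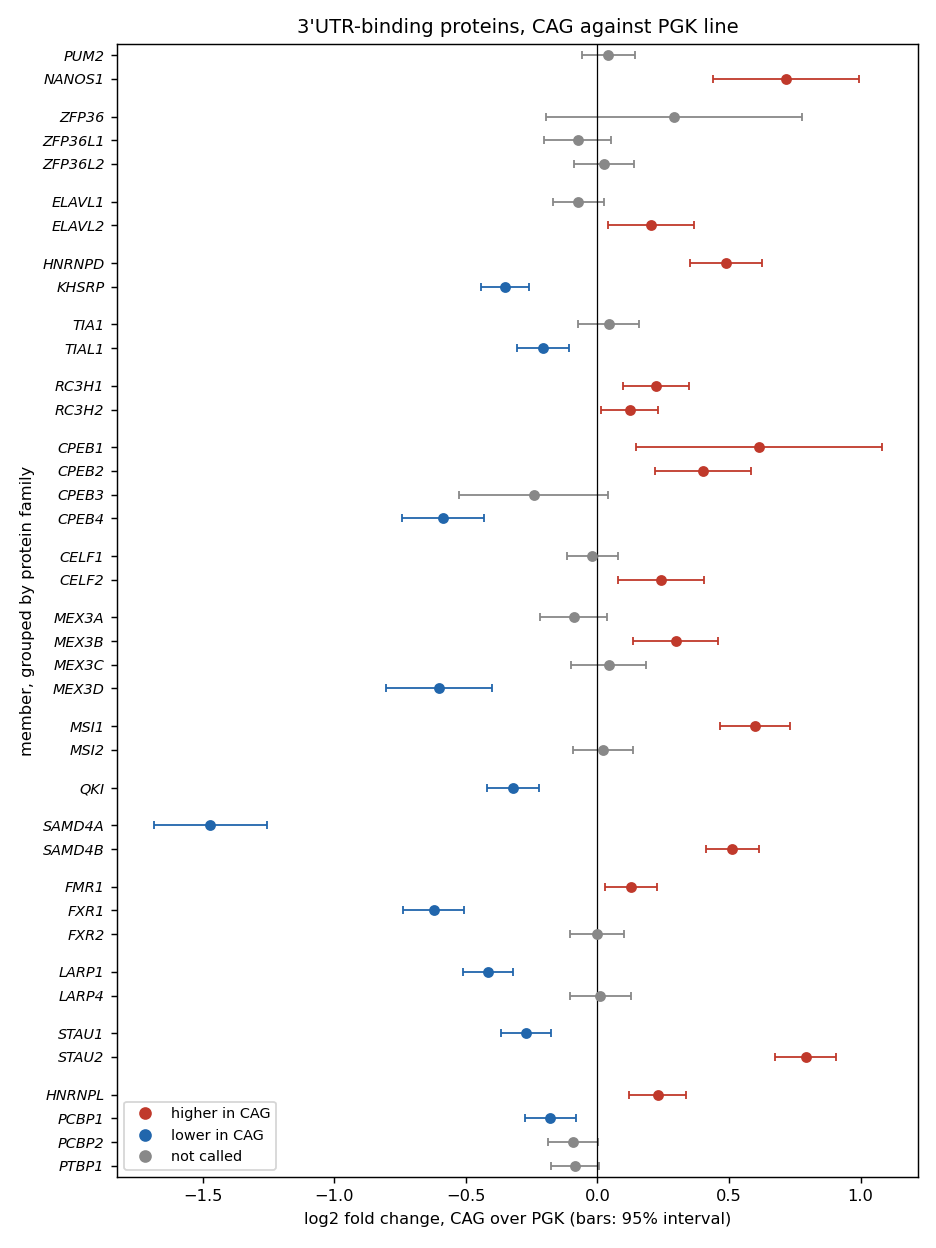
Log2 fold change of CAG over PGK (horizontal axis) with its 95% interval for the 39 tested members, grouped by protein family; red points were called higher in CAG, blue points lower, and grey points were not called. SAMD4A lies farthest to the left at -1.47 and STAU2 farthest to the right at 0.79, while most members lie near 0.

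The mRNAs of the Smaug proteins, which bind stem-loop elements and repress translation, moved in opposite directions. SAMD4A (ENSG00000020577, chromosome 14) was at 20.6, 20.9 and 17.3 CPM in the PGK libraries and at 6.25, 8.14 and 6.75 CPM in the CAG libraries. All PGK values were more than 2 times the highest CAG value, and the log2 fold change of -1.47 (SE 0.10) was exceeded in size by 4.17% of tested genes. By edgeR's quasi-likelihood test its Benjamini-Hochberg adjusted p was 8.73e-10. SAMD4B (ENSG00000179134, chromosome 19), its paralogue, was at 111, 108 and 112 CPM in PGK and at 152, 161 and 160.1 CPM in CAG. SAMD4B rose by 0.51 (SE 0.05) on the log2 scale, with no overlap between lines and an adjusted p of 2.75e-08 in the same edgeR test. To compare levels between genes, CPM was divided by the length of 1 annotated transcript per gene. On that scale SAMD4A held 10.9%, 11.3% and 9.23% of the summed Smaug level in the PGK libraries and 2.64%, 3.24% and 2.71% in the CAG libraries, so SAMD4B was the main Smaug mRNA of both lines.

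The mRNAs of the Staufen proteins, which bind double-stranded RNA in 3′UTRs and act in mRNA transport and decay, also went in opposite directions. STAU2 (ENSG00000040341, chromosome 8) was at 33.6, 36.1 and 35.1 CPM in PGK and at 60.6, 62.1 and 58.7 CPM in CAG. This was the largest rise among the members, with a log2 fold change of 0.79 (SE 0.06) and an adjusted p of 7.83e-10 in edgeR's quasi-likelihood test. STAU1 was at 231, 246 and 234 CPM in PGK and at 201, 195 and 193 CPM in CAG, lower by a log2 fold change of -0.27 (SE 0.05). The share of STAU2 in the family went from 15.1% ± 0.216 to 27.0% ± 0.587 (SD, n = 3) of the level per kilobase. With the length of all merged exons in place of 1 transcript, an alternative chosen after the data were seen, the share was 6.29% and 12.3%.

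Shares within a family come from 1 library at a time and do not depend on the scaling between libraries. The smallest p that an exact permutation test of 3 against 3 libraries allows is 0.10, so the 41 shares in 15 families are given as values with no test.

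**Figure D2:**
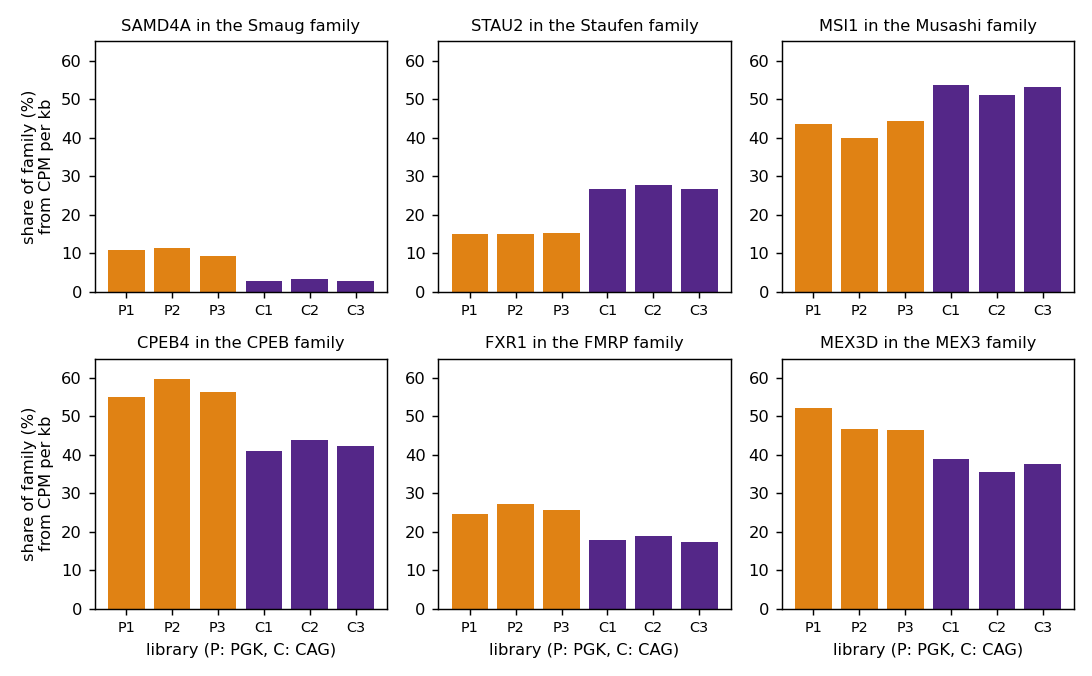
Share of each family's summed CPM per kilobase (vertical axis, percent) held by 1 member, in each of the 3 PGK (orange, P1 to P3) and 3 CAG libraries (purple, C1 to C3). The SAMD4A, CPEB4, FXR1 and MEX3D shares are lower in every CAG library than in any PGK library, and the STAU2 and MSI1 shares are higher.

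Among the other genes for repressors that recruit deadenylases, NANOS1 and RC3H1 rose, RC3H2 was called by a narrow margin, and none of the 3 ZFP36 genes passed the test. NANOS1 (ENSG00000188613, chromosome 10), a partner of Pumilio proteins in germ cells, had 76, 98 and 74 counts in PGK and 128, 143 and 158 counts in CAG. In CPM these were 3.54, 4.40 and 3.24 against 5.68, 6.06 and 6.63, with no overlap, a log2 fold change of 0.72 (SE 0.13) and an adjusted p of 1.24e-04 in edgeR's quasi-likelihood test. NANOS1 overlaps EIF3A on the other strand, which was at 928.6 CPM in PGK and 778 CPM in CAG. No source used here gives the strand setting of the counting, so the level of NANOS1 is uncertain. The same holds for ELAVL1, HNRNPD, CPEB1, CPEB2 and PCBP1, which overlap non-coding genes on the other strand, and for PCBP2, which overlaps MAP3K12. TIA1, STAU2 and HNRNPL overlap C2orf42, AC022826.2 and AC008982.1 on their own strand, which a strand setting does not separate, and are also uncertain. C2orf42 was at 10.3 CPM in PGK and 8.88 CPM in CAG, AC008982.1 was at 0.03 and 0 CPM, and AC022826.2 had no row. EIF3A itself was lower in CAG, with a log2 fold change of -0.25. PUM2, a Pumilio protein that binds TGTANATA elements, written here in DNA letters, was at 111 to 118 CPM in PGK and 114 to 119.9 CPM in CAG, a log2 fold change of 0.04 with a 95% interval of -0.06 to 0.14. NANOS3 had 3 counts in all PGK libraries together and 6 in all CAG libraries, and was not tested.

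The Roquin genes RC3H1 and RC3H2, whose proteins bind stem-loops in mRNAs of immune and developmental genes, were both higher by small amounts. RC3H1 was at 34.8, 34.1 and 32.4 CPM in PGK and 38.1, 40.9 and 39.4 CPM in CAG, a log2 fold change of 0.22 (SE 0.06). RC3H2 changed by 0.12 (SE 0.05), with an adjusted p of 0.0475 in edgeR's quasi-likelihood test that missed the threshold in 8 of 13 alternatives, where it reached 0.187. The proteins of the ZFP36 genes bind UAUUUAU and trigger decay. ZFP36 itself was low, at 1.02, 1.03 and 1.71 CPM in PGK and 1.69, 1.44 and 1.51 CPM in CAG, so that its 95% interval of -0.20 to 0.78 on the log2 scale leaves room for a sizeable difference. ZFP36L1 at -0.07 and ZFP36L2 at 0.03 had narrower intervals, of -0.20 to 0.05 and -0.09 to 0.14. ZFP36L2 was the most abundant of the 3, with 60.4% of the family's level per kilobase in PGK and 61.6% in CAG.

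The other readers of AU-rich elements were split. HNRNPD (ENSG00000138668, chromosome 4), known as AUF1 and mostly a decay factor, was at 778, 688 and 641 CPM in PGK and at 1055, 939 and 963 CPM in CAG. It rose by 0.49 (SE 0.06) on the log2 scale with an adjusted p of 5.86e-06 in edgeR's quasi-likelihood test, although its PGK libraries were widely spread. KHSRP (ENSG00000088247, chromosome 19), a KH-domain protein that also promotes decay of AU-rich mRNAs, was at 1087, 1100.5 and 1108 CPM in PGK and at 867, 862 and 852 CPM in CAG. KHSRP fell by 0.35 (SE 0.04), and its adjusted p in the same edgeR test was 1.14e-06. HNRNPD and KHSRP have annotated pseudogenes that are not among the counted rows, so some of their reads may be shared with near-identical copies and their values are uncertain. ELAVL1, or HuR, the ubiquitous stabiliser of AU-rich mRNAs, had 195 to 209 CPM in PGK and 189 to 198 CPM in CAG, and its log2 fold change of -0.07 had a 95% interval of -0.17 to 0.02. ELAVL2, a mostly neuronal relative, was at 19.8, 24.1 and 21.0 CPM in PGK and at 24.4, 26.4 and 24.0 CPM in CAG. It was called higher by 0.20 (SE 0.08), but the lines overlapped and DESeq2 did not call it, nor did edgeR when PGK replicate 1, PGK replicate 3 or CAG replicate 2 was left out. The neuronal ELAVL3 had 4 counts in PGK and 0 in CAG, and ELAVL4 had 1 and 0. The 95% interval for a count of 0 over the 3 CAG libraries reaches 0.0527 CPM, for counting error only, and 3 counts would be 0.0429 CPM. TIAL1, a stress granule protein, fell by 0.21 (SE 0.05), from 133, 133 and 132 CPM to 115, 119 and 111 CPM, and its paralogue TIA1 changed by 0.04 with an interval of -0.07 to 0.16.

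Among translational regulators, the CPEB family, which binds UUUUAU elements and controls poly(A) length, changed its balance. CPEB4 (ENSG00000113742, chromosome 5) was at 32.0, 36.9 and 35.1 CPM in PGK and at 21.1, 23.5 and 24.7 CPM in CAG, a log2 fold change of -0.59 (SE 0.07) with an adjusted p of 1.61e-06 in edgeR's quasi-likelihood test. CPEB2 rose by 0.40 (SE 0.09), from 9.92, 8.94 and 9.51 CPM to 12.6, 11.7 and 13.2 CPM. CPEB1, best known from oocytes, was low, with 22 to 34 counts per PGK library and 34 to 51 per CAG library. Its log2 fold change of 0.61 (SE 0.22) had an adjusted p of 0.0228 in edgeR's test, and it was not called by DESeq2 or when PGK replicate 1 or 2 or CAG replicate 2 or 3 was left out, with adjusted p of up to 0.113. CPEB3 did not pass, at -0.24 with an interval of -0.52 to 0.04. It was at -0.11 without CAG replicate 2 and at -0.37 without CAG replicate 3, where it was called with an adjusted p of 0.0459 in edgeR's test. Per kilobase, CPEB4 made up 54.9%, 59.7% and 56.4% of the family in PGK and 40.9%, 43.7% and 42.3% in CAG, while CPEB2 went from 21.5% ± 1.80 to 31.6% ± 1.84 (SD, n = 3).

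The Musashi, FMRP and MEX3 families each held 1 member that moved by more than 0.5 on the log2 scale. MSI1 (ENSG00000135097, chromosome 12), a translational repressor of neural progenitors, was at 34.8, 29.8 and 32.3 CPM in PGK and at 49.7, 47.2 and 49.9 CPM in CAG. Its log2 fold change was 0.60 (SE 0.06) with an adjusted p of 1.83e-07 in edgeR's quasi-likelihood test, and its share of the family per kilobase went from 42.6% ± 2.36 to 52.6% ± 1.33 (SD, n = 3). Over merged exons the MSI1 share was 70.7% and 78.3%, and of CPM with no length correction it was 25.8% and 34.1%, so which Musashi gene led was not settled. MSI2 changed by 0.02, with an interval of -0.09 to 0.13. FXR1 (ENSG00000114416, chromosome 3), a relative of the fragile X protein, was at 194, 221 and 199.97 CPM in PGK and at 133, 140.0 and 126 CPM in CAG. FXR1 fell by 0.62 (SE 0.06), and the adjusted p was 1.52e-08 in the same edgeR test. FMR1, the fragile X gene, was called higher by 0.13 (SE 0.05), with an adjusted p of 0.0265 in edgeR's test that rose to as much as 0.110 without PGK replicate 3, CAG replicate 2 or CAG replicate 3. FXR2, which overlaps MPDU1 on the other strand, changed by -0.00 with an interval of -0.11 to 0.10. MEX3D (ENSG00000181588, chromosome 19), of a family of KH and RING domain proteins, was at 64.0, 49.6 and 49.5 CPM in PGK and at 37.9, 33.6 and 35.9 CPM in CAG. PGK replicate 1 stood above the other PGK libraries for this gene, and the lines still did not overlap. The log2 fold change was -0.60 (SE 0.09) with an adjusted p of 8.29e-05 in edgeR's quasi-likelihood test, and over the fits that left out 1 library or changed a setting it ran from -0.67 to -0.47. MEX3B rose by 0.30 (SE 0.08), and MEX3A at -0.09 and MEX3C at 0.04 did not pass.

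**Figure D3:**
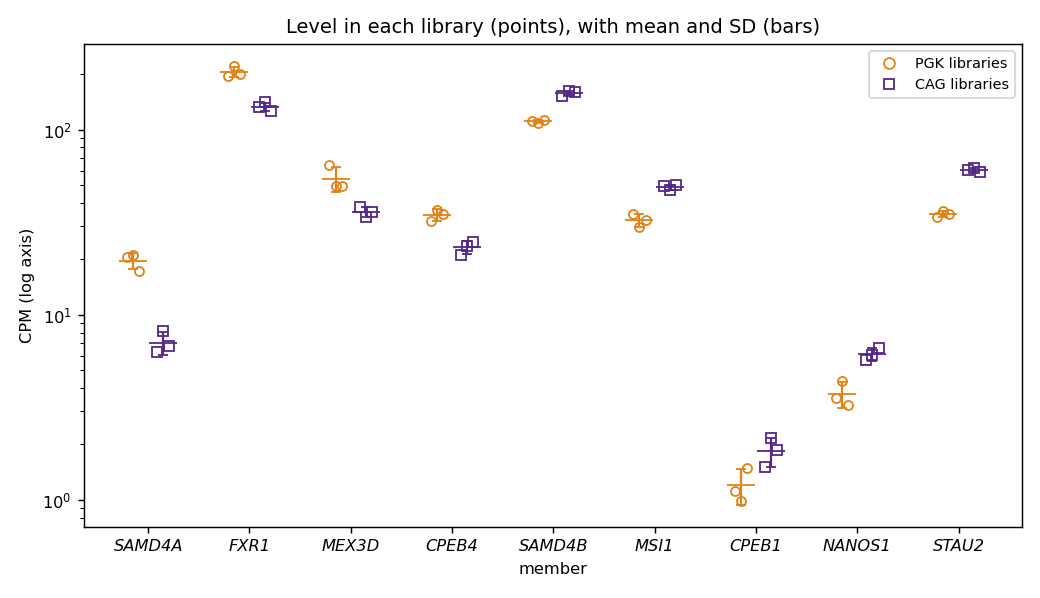
CPM on a log axis in each PGK library (orange circles) and CAG library (purple squares) for the 9 members called with an absolute log2 fold change of at least 0.5; horizontal bars are means and vertical bars SD over 3 libraries. The lines do not overlap for any of the 9, and CPEB1 at 0.989 to 2.16 CPM has the widest relative spread.

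The remaining members are regulators of splicing, stability and translation, and their absolute log2 fold changes were under 0.5. QKI, which binds ACUAAC elements, was at 209, 225 and 212 CPM in PGK and at 166, 178 and 172 CPM in CAG, a log2 fold change of -0.32 (SE 0.05). LARP1, which controls the mRNAs of ribosomal proteins, was at 634, 653 and 606 CPM in PGK and at 472, 477 and 470.2 CPM in CAG, and fell by 0.42 (SE 0.05). LARP4, which binds poly(A), changed by 0.01 with an interval of -0.10 to 0.13. CELF2 was called higher by 0.24 (SE 0.08), with overlap between the lines, and the call was lost without CAG replicate 2 or CAG replicate 3, while CELF1, which binds GU-rich elements, changed by -0.02 with an interval of -0.12 to 0.08. CELF1 overlaps NDUFS3 and PTPMT1 on the other strand and is uncertain. HNRNPL, a binder of CA repeats, rose by 0.23 (SE 0.05) and the poly(C)-binding PCBP1 fell by 0.18 (SE 0.05). PCBP2 at -0.09 and the polypyrimidine tract protein PTBP1 at -0.09 did not pass, with adjusted p of 0.0803 and 0.0934 in edgeR's quasi-likelihood test, although their PGK and CAG libraries did not overlap. HNRNPL, PCBP2, PTBP1, LARP1 and LARP4 also have annotated pseudogenes and are uncertain in the same way as HNRNPD.

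Many members had log2 fold changes like those of the genes around them. For each member the median log2 fold change of up to 50 neighbouring tested genes was taken, 25 to each side in GENCODE order. Of the tested members 28 of 39 (71.8%) lay between the lower and upper quartile of their neighbours, against 48.6% of all tested genes with neighbours. Among the lists described below the share was 70.0% for partner genes, 47.1% for family paralogues and 48.4% for AU-rich mRNAs. Members were also more abundant, with a median level of 85.8 CPM against 31.9, and the part of abundance in this difference was not tested. FXR1 at -0.62 had neighbours with a median of -0.55, LARP1 at -0.42 had -0.44, HNRNPD at 0.49 had 0.50, CPEB2 at 0.40 had 0.43, and KHSRP at -0.35 had -0.43. Of the 28 members within the quartiles 15 were called, and of the 6284 tested genes within theirs 2814 were called. Among the 24 called members 13 (54.2%) had neighbours with a median of at least 0.25 in size and in the same direction. Among all called genes with neighbours that share was 35.7%. After the median of the neighbours was subtracted, 8 of the 14 higher members and 8 of the 10 lower members kept their sign. Together these were 66.7% of the called members, against 86.2% of all called genes with neighbours. The largest differences from the neighbours were those of SAMD4A, STAU2 and NANOS1, whose neighbours had medians of -0.09, 0.03 and -0.14. The quartiles of the neighbours were -0.23 and 0.03 for SAMD4A, -0.18 and 0.47 for STAU2 and -0.27 and -0.03 for NANOS1, and each of the 3 members lay outside them.

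Chromosome 19 holds 9 of the 42 members, 7 of them tested, and showed both cases. In the first part of the chromosome PTBP1, MEX3D, KHSRP and ELAVL1 had neighbours with medians of -0.54, -0.43, -0.43 and -0.39. MEX3D and KHSRP were lower, KHSRP at -0.35 within the quartiles of its neighbours and MEX3D at -0.60 below the lower quartile. PTBP1 at -0.09 and ELAVL1 at -0.07 lay above the upper quartile of their neighbours, -0.34 and -0.15. Further along, HNRNPL, SAMD4B and ZFP36 had neighbours with medians of 0.48, 0.32 and 0.33. SAMD4B at 0.51 lay within the quartiles of its neighbours, 0.18 and 0.55, and HNRNPL at 0.23 lay below the lower quartile of 0.29.

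**Figure D4:**
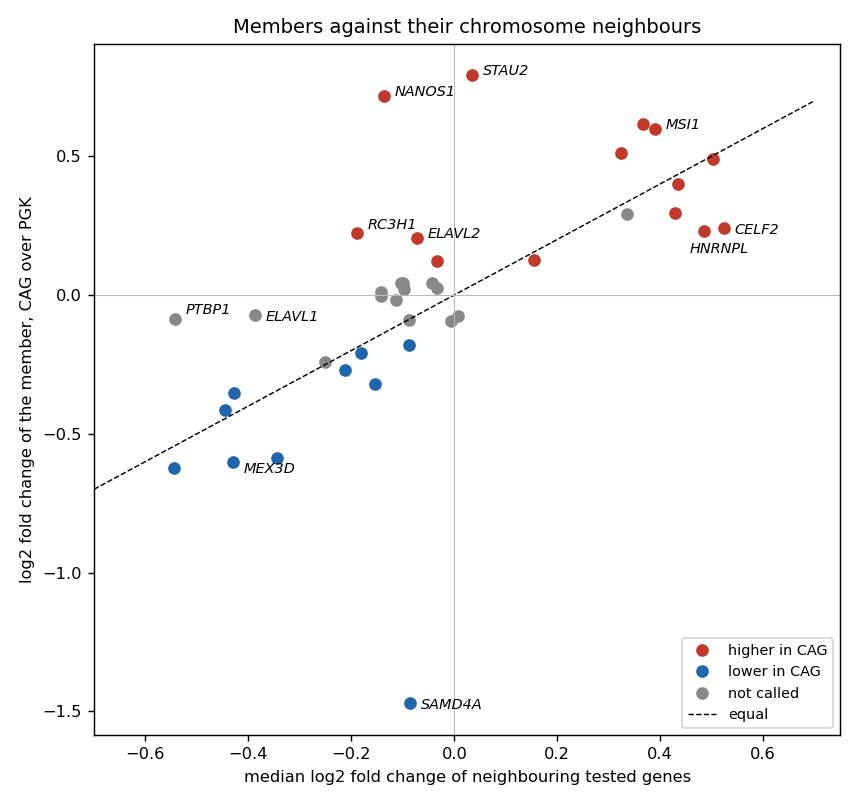
Log2 fold change of each of the 39 tested members (vertical axis) against the median of up to 50 neighbouring tested genes (horizontal axis); the dashed line marks equal values, colours mark the call, and names are given for the 11 members outside the quartiles of their neighbours. SAMD4A, STAU2 and NANOS1 lie far from the line, and most other members lie along it.

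Genes of the same families outside the 42, and genes that work with these proteins, were read from lists in the same fit. Of 21 paralogues 17 were tested, with 9 higher and 3 lower (70.6% called, against 62.0% of all tested genes). Their median log2 fold change was 0.30, against -0.00. With the neighbours' median subtracted from each gene, the median of the tested paralogues was 0.05, against -0.00 for all tested genes with neighbours. Of the 12 called paralogues, 9 had neighbours with a median of at least 0.25 in size and in the same direction. The STAR protein KHDRBS3 fell most, by 1.40 (SE 0.08), from 29.9, 29.5 and 32.7 CPM to 12.9, 11.3 and 10.9 CPM. HNRNPDL, a paralogue of HNRNPD, rose by 0.54 (SE 0.05), and CELF4, a brain CELF protein with 1.42 to 2.34 CPM per library, fell by 0.53 (SE 0.19). Of 41 deadenylation, cap-binding and stress granule partners 40 were tested, with 10 higher and 12 lower (55.0% called, against the same 62.0%) and a median of 0.03. The deadenylase subunit CNOT3 and the cap-binding factor EIF4E rose, by 0.80 (SE 0.05) and 0.53 (SE 0.05), and TOB1, which links binding proteins to deadenylases, fell by 0.56 (SE 0.07). CELF4, CNOT3, EIF4E and TOB1 overlap genes on the other strand and are uncertain.

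Of 42 mRNAs known for AU-rich or short-lived 3′UTRs 31 were tested, with 7 higher and 13 lower (64.5% called, against 62.0% of all tested genes) and a median of -0.17. CCND1, the G1 cyclin, was at 80.8, 83.1 and 80.4 CPM in PGK and at 8.69, 10.6 and 11.03 CPM in CAG, a log2 fold change of -3.01 (SE 0.07) with an adjusted p of 1.78e-16 in edgeR's quasi-likelihood test. JUNB, an immediate early factor, was at 19.6, 18.4 and 20.5 CPM in PGK and at 7.23, 5.13 and 7.26 CPM in CAG, and fell by 1.57 (SE 0.11). The cell cycle inhibitor CDKN1A fell by 1.33 (SE 0.07). CCND1, JUNB and CDKN1A overlap genes on the other strand and are uncertain. Their neighbours had medians of -0.01, -0.35 and -0.30, and all 3 lay below the lower quartile of their neighbours. Other mRNAs on this list went up, such as FOSB by 0.72 (SE 0.22). FOSB was low, with 19 to 23 counts per PGK library and 32 to 43 per CAG library. Its neighbours had a median of 0.48 and an upper quartile of 0.69. Cytokine mRNAs of the list such as TNF, IL6 and CSF2 were at or near 0 counts in both lines.

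The members' own mRNAs hold the elements that other members bind. Their 3′UTRs, taken from 1 GENCODE 29 transcript per gene, had a median of 1917 bases, against 1123 for all tested genes with a 3′UTR. The AU-rich element TATTTAT was found in 26 of 39 (66.7%), against 33.5% of all tested 3′UTRs and an average of 45.6% of 3′UTRs whose length was within 20% of each member's. The Pumilio element TGTANATA was found in 14 of 39 (35.9%), against 28.3% of all and 39.1% at like length. Only the strand of the transcript was searched, overlapping matches counted, and a match is a description of the letters, not evidence of binding. SAMD4A held 4 copies of TATTTAT, FXR1 2 copies and CPEB4 4, while MEX3D, HNRNPD and KHSRP held none. The first match is shown for 5 members that moved by more than 0.5, because these letters match the elements that ZFP36, ELAVL1 or Pumilio proteins are known to bind. The choice is partial, since TATTTAT was also found in NANOS1, STAU2, CPEB1, MSI1 and FXR1, and those matches are not shown. Each match shown is written 5′ to 3′ as DNA with the element in capitals.
SAMD4A, AU-rich, bases 2501 to 2507 of 4371: atctgaatttcTATTTATtccttcactga
SAMD4B, AU-rich, bases 639 to 645 of 1399: tttaagatacaTATTTATatagttcttaa
CPEB4, AU-rich, bases 796 to 802 of 5839: gggagtgcactTATTTATttaacttactt
MSI1, Pumilio, bases 684 to 691 of 1797: cctgtatcataTGTAAATActgtgaggtga
FXR1, Pumilio, bases 1263 to 1270 of 6461: attaaactttaTGTATATAttttagccaga
SAMD4A and SAMD4B carry the same AU-rich heptamer and moved in opposite directions.

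Across the transcriptome, mRNAs that hold an element of these proteins had median changes near those of other mRNAs. Tested genes with TATTTAT in the 3′UTR had a median log2 fold change of 0.02 and 61.5% were called, against -0.01 and 63.0% without it. For TGTANATA the medians were 0.01 and -0.01, with 61.7% and 62.9% called. For ACTAAC, the QKI element, TTTTAT, the CPEB element, TGTTTGT, a CELF element, and CCCTCCC, a PCBP element, the medians were 0.01, 0.01, 0.03 and 0.01 with the element and -0.01, -0.03, -0.01 and -0.01 without it. TATTTAT and TTTTAT can overlap each other. With each element more genes were called higher than lower, but the same held without ACTAAC and without CCCTCCC. Without ACTAAC they were 3295 higher and 3252 lower, and without CCCTCCC 3013 and 2911. For TGTTTGT they were 1184 higher and 915 lower with it, against 2868 and 2967 without it. For TATTTAT they were 1445 and 1167 with it, against 2607 and 2715 without it. Of all tested genes with a 3′UTR 4052 were higher and 3882 lower. Genes with an element had longer 3′UTRs, with a median of 2413 bases for TATTTAT against 742 without. Within 3′UTRs of 1000 to 2000 bases the medians were 0.02 with TATTTAT and 0.02 without, and 0.03 with TGTANATA and 0.01 without. There more genes were called higher than lower both with and without each element. For TATTTAT they were 333 higher and 262 lower with it, and 644 and 557 without it. In that length range ACTAAC had the widest gap in calls, 68.2% with it and 62.7% without. These values are descriptions over genes, which are not independent replicates.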

How the data were processed

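The authors deposited whole-number read counts per Ensembl gene for 6 libraries, not normalized and not pooled. The submitters' processing notes name featureCounts 2.0.3, HISAT2 2.2.1, Bowtie2 2.5.1, cutadapt 4.6 and the hg19 build. No source used here gives their roles, the gene annotation, the strandedness used in counting or how multimapping reads were treated. Each of the 6 columns carries the label of its sample. Symbols came from the Ensembl identifiers through GENCODE 29 (19346 of 20169 rows matched); it is built on GRCh38, so no coordinates are given. Genes were filtered with filterByExpr, scaled by TMM and compared with edgeR 4.0.16 (R 4.3.3; robust quasi-likelihood fit, two-sided, Benjamini-Hochberg adjustment over 13103 genes, threshold 0.05). Standard errors were derived as the absolute log2 fold change divided by the square root of F. Levels are CPM on TMM-scaled sizes. The test was run on simulated counts for 13103 genes. It recovered 65.3% of genes changed by 0.322 on the log2 scale, 87.8% by 1.5-fold and 98% by 2-fold. These shares describe the simulated counts only, and recovery in the measured libraries was not tested.

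The members, families, lists and markers were chosen with earlier results of these data known. Values in every library are given for called members with an absolute log2 fold change of at least 0.5 and for some others, chosen after their values were seen; in each other list the 3 called genes with the largest change are named, and FOSB, TNF, IL6 and CSF2 were added after their values were seen. CYFIP1 and MARCKS, and the markers LHX1 and PECAM1, were not analysed here. The alternatives were no and a stricter low-count filter, scaling by RLE or by library size alone, limma-voom (limma 3.58.1), DESeq2 1.42.0, a null of 1.5-fold, a replicate block, and the omission of each library in turn.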

Additional observations from a re-analysis of the deposited data

How the results depend on the processing

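Of the 24 called members 19 kept their call in all 13 alternatives other than the test against a fold of 1.5; ELAVL2, RC3H2, CPEB1, CELF2 and FMR1 did not. Against a fold of 1.5 the calls were 1512 of all tested genes, 1 higher and 1 lower member, 1 paralogue, 1 partner and 4 AU-rich mRNAs. Leaving out 1 library gave 9 to 13 higher members, the 9 without CAG replicate 2. Calls over all tested genes in these fits and in the replicate block are not given here. The member counts can therefore not be set against the background. With the neighbours' median subtracted 8 of the higher members kept their sign. Members near 0 changed sign without being called: over the fits that left out 1 library ZFP36L2 ran from -0.0095 to 0.067, TIA1 from -0.0079 to 0.076, CELF1 from -0.042 to 0.0066, MSI2 from -0.033 to 0.049, FXR2 from -0.039 to 0.017 and LARP4 from -0.025 to 0.060. Scaled by library size only, CELF1 was at 0.014 and FXR2 at 0.030, and with the stricter filter FXR2 was at 0.0026. The CPEB3 share differed by 0.20 points with no length correction, against -0.82. The cause of these changes was not tested. With the replicate block 14 members were higher and 12 lower, with PCBP2 and PTBP1 added. Deviations of same-numbered libraries had correlations of 0.11, 0.10 and 0.01 between the lines, each the highest for its library. The last was close to the 0.0099 of PGK replicate 3 with CAG replicate 2. Deviations are taken from the mean of each line, so these correlations are not independent. They do not settle whether the libraries are paired, and the labels name no shared batch. Depth limits NANOS3, ELAVL3 and ELAVL4, which were not tested.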

Other observations

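Some paralogues and partners of the 3′UTR-binding proteins that lie close together had like values, and others did not; these groups were chosen after the values were seen. On chromosome 4 HNRNPD lies next to its paralogue HNRNPDL, with 0 tested genes between them, and with 10 between it and the deadenylase CNOT6L, which has another 10 between it and the stress granule gene G3BP2. Their log2 fold changes were 0.49 for HNRNPD, 0.54 for HNRNPDL, 0.48 for CNOT6L and 0.50 for G3BP2. On chromosome 5 LARP1 lies next to the deadenylase CNOT8 and with 5 tested genes between it and G3BP1, and the values were -0.42 for LARP1, -0.37 for CNOT8 and -0.45 for G3BP1. G3BP1 was at 468, 490.2 and 471 CPM in PGK and at 352, 364 and 333 CPM in CAG, and G3BP2 at 173, 179 and 168 CPM in PGK and at 239, 256 and 241 CPM in CAG. The paralogues G3BP1 and G3BP2 thus differed in direction, and each lay within the quartiles of its neighbours, as did LARP1, CNOT8, HNRNPD, HNRNPDL and CNOT6L. CYFIP2, with 4 tested genes between it and CNOT8, was not called, at 0.09, while its neighbours had a median of -0.42. NANOS1 and TIAL1, with 6 tested genes between them, were called in opposite directions, at 0.72 and -0.21. With 1 tested gene between each pair, PCBP1 and TIA1 were at -0.18 and 0.04, and EIF4E2 and GIGYF2 at -0.02 and -0.19. G3BP1, CNOT8 and CYFIP2 overlap genes on the other strand and are uncertain.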
